A study of Mus musculus with 7 samples.

Results

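Fibroblast growth factors (FGFs) are secreted proteins that bind receptor tyrosine kinases on neighbouring cells and, through the RAS and MAPK cascade, switch on ETS transcription factors and feedback inhibitors such as the Sprouty proteins. In the face and the tooth they carry signals between epithelium and mesenchyme. Fgf8 and Fgf9 are known as early signals of the oral ectoderm, Fgf4 and Fgf20 as signals of the enamel knot, the epithelial centre that shapes the crown, and Fgf10 as a mesenchymal signal that maintains the epithelial stem cells of the incisor. Open chromatin around 8 FGF ligand genes of face and tooth, Fgf3, Fgf4, Fgf8, Fgf9, Fgf10, Fgf15, Fgf17 and Fgf20, is described here from all deposited ATAC-seq peaks that lay inside or within 100 kb of the gene bodies. The 8 genes were among 21887 protein-coding genes on the placed chromosomes, and their windows held 132 of the 130788 merged open regions of the series. Fgf3, Fgf4 and Fgf15 lie in a row on chromosome 7, with gaps of 18.04 kb and 31.29 kb between them, so their windows overlap and many of their peaks are the same peaks.

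ATAC-seq marks DNA that a transposase can reach, and peaks mark the sites where its cuts pile up. The 7 mouse libraries carry no drug or genetic treatment in the labels beyond the reporter used for sorting. Ectoderm of the first pharyngeal arch, peeled from the mesenchyme at embryonic day 11.5, gave 2 libraries, and Sox2-positive cells sorted from the dissociated labial cervical loop of the lower incisor at postnatal day 2 (P2) gave 2 libraries. The sort used Sox2-GFP mice, in which the endogenous Sox2 promoter makes GFP, so these cells are defined by that reporter. Whole lower incisor, whole lower first molar and whole upper first molar at P2 gave 1 library each, with no replicate. The labels do not say whether replicates came from separate animals or litters. Ectoderm and P2 libraries differ at once in stage, tissue and way of isolation, and these cannot be told apart here.

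The lists held 39017 to 82461 peaks, the longest being ectoderm replicate 1 and the shortest Sox2-positive replicate 2. Peak lists hold no reads, so depth was unknown, and a longer list can reflect depth as well as chromatin. Counts around the genes are therefore given for the full lists and again for the strongest 38000 autosomal peaks of each library by the authors' −log10 p, called equal-length lists below. This kept 90.85% and 99.15% of the autosomal peaks of Sox2-positive replicates 1 and 2, and 47.0% and 76.43% of those of ectoderm. In incisor it kept 61.22%, in lower molar 55.17% and in upper molar 56.55%. Being kept at equal length is thus nearly automatic in the Sox2-positive lists and does not show a stronger peak there. The labels give no sex, and the libraries differed in peaks on chromosome Y, with 17 and 20 in ectoderm, 10 and 0 in Sox2-positive replicates 1 and 2, 5 in incisor, 4 in lower molar and 3 in upper molar. The Sox2-positive replicates thus stood apart from each other there, and the part this played in the results was not tested. Of 8 epithelial marker genes, 7 had a start-site peak in each of the 7 libraries, Trp63 being the exception. A count equal in all libraries does not tell the labels apart, and 54.1% of all genes had such a peak in all 7. All 5 stem cell markers had one in every library, and at equal length 5 did in the sorted cells and 4 elsewhere. Ameloblast markers had one for 1 of 4 genes in ectoderm and incisor, 2 in the sorted cells and lower molar and 3 in upper molar. At equal length these were 2 of 3 in the sorted cells and 1 of 3 elsewhere. Of 7 dental mesenchyme markers, 3 and 4 had one in the ectoderm libraries, 6 in each Sox2-positive library, 7 in incisor and 6 in each molar. At equal length the epithelial count was 5 in incisor and 7 elsewhere, and the mesenchymal counts were 2 and 4 in ectoderm, 6 and 6 in the sorted cells, 6 in incisor and 5 in each molar. Pdgfra and Runx2 had one in both Sox2-positive libraries and in neither ectoderm library. Blood markers had a start-site peak for 2 of 5 genes in every library, endothelial markers for 1 or 2 of 4, which became 0 in the 3 whole teeth at equal length, and neural markers for 1 to 3 of 4. The part that other cell types played in the results below was not tested. In these bulk samples, fewer cells with an open site and a site less open per cell cannot be told apart.

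The promoter sequences of 4 ligands are shown because the libraries differed in how much of each lay under a peak, from none to all at Fgf4, Fgf9 and Fgf10. They come from RefSeq on GRCm38.p6, run from 250 bases before to 50 bases after the start site, and were matched by gene ID. Fgf8, Fgf15, Fgf17 and Fgf20 had no entry. Capitals mark matches, on either strand, to any of 7 short motifs. These are the GC box, written as GGGCGG, the CCAAT box, and the TATA box, written as TATAAA. The others are the ETS core, spelled CCGGAA, the core of PITX factors, spelled TAATCC, the core of LEF1 and TCF factors, spelled CTTTGA, and a homeodomain core, spelled TAATTA. Fgf3 is at chr7:144838362-144838661, Fgf4 at chr7:144861136-144861435, Fgf9 at chr14:58072436-58072735 and Fgf10 at chr13:118714449-118714748, all on the plus strand. The Fgf9 start site used, chr14:58072686, lies inside the gene body, which begins at chr14:58070671. The Fgf9 sequence shown is thus not the one before the beginning of the gene body.

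Fgf3: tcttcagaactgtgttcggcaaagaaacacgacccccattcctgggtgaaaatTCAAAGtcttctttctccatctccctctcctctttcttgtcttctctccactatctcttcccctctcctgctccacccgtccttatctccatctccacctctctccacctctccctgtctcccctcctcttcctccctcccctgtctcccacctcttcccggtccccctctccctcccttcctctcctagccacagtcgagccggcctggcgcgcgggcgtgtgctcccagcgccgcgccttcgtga

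Fgf4: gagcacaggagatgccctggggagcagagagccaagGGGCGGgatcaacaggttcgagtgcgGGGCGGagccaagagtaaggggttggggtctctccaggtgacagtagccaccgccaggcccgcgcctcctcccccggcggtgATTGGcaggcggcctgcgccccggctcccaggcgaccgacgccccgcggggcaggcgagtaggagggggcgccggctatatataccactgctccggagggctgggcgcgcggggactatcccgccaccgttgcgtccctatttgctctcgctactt

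Fgf9: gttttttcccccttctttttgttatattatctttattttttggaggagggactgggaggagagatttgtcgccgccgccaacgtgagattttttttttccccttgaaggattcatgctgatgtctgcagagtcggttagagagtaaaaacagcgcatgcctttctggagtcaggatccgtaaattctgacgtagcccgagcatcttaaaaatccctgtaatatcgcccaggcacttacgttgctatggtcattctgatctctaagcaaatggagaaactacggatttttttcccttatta

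Fgf10: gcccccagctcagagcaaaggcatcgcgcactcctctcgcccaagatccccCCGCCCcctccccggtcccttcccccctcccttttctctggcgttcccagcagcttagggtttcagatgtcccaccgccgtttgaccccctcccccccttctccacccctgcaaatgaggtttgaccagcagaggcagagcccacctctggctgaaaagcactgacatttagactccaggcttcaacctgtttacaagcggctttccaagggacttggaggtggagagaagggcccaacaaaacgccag

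The Fgf4 promoter had the most GC-rich sequence of these, with 69.7% G and C and 28 CpG pairs, against medians of 52.7% and 7 over all 32851 promoters of the table. It held GGGCGG at 2 places and CCAAT, on the opposite strand, at 1. The Fgf3 promoter had 59.3% G and C with 14 CpG pairs and 1 CTTTGA match on the opposite strand. The Fgf10 promoter had 60.7% G and C with 10 CpG pairs and 1 GGGCGG match on the opposite strand. The Fgf9 promoter, at 42.7% G and C with 12 CpG pairs, held none of the 7 motifs. Over all promoters of this length, GGGCGG occurred in 35.7%, CCAAT in 37.4%, TATAAA in 13.6%, CCGGAA in 14.9%, TAATCC in 7.06%, CTTTGA in 16.0% and TAATTA in 5.29%. A match describes letters and is not a binding site.

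Peaks covered these promoter sequences in different sets of libraries. The Fgf3 promoter lay partly under a peak in all 7 libraries, with 77 to 229 of its 300 bases covered. The Fgf10 promoter was fully covered in both ectoderm libraries, Sox2-positive replicate 1 and incisor, over 279 bases in lower molar, and not at all in Sox2-positive replicate 2 and upper molar. The Fgf4 promoter was fully covered in ectoderm replicate 1 and touched by no peak in the other 6 libraries. The Fgf9 promoter was fully covered in ectoderm replicate 2 and over 15 bases in upper molar, and the peak summits at Fgf9 sat at -479 to -540 bp from this start site in all 7 libraries. These summits lie inside the Fgf9 gene body.

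Most of the genes had a peak at a start site, or at a gene end where the table gives no start, in both ectoderm libraries, and fewer had one in both Sox2-positive libraries. A peak counted if it came within 1 kb of the start site for Fgf3, Fgf4, Fgf9 and Fgf10, and of either end of the gene for Fgf8, Fgf15, Fgf17 and Fgf20. Of all protein-coding genes, 79.9% had a start site in the table, against 4 of these 8. The rule of either end, which gives a gene 2 places to meet it, thus applied more often to the 8 genes. The shares over all genes, here and below, are therefore not fully like for like. Fgf3, Fgf8, Fgf9, Fgf10, Fgf15, Fgf17 and Fgf20 met this in both ectoderm libraries, 7 of 8 genes, against 64.1% of all protein-coding genes. Fgf3, Fgf4, Fgf9 and Fgf17 met it in both Sox2-positive libraries, 4 of 8, against 55.1% of all genes. Fgf3, Fgf9 and Fgf17 met it in all 7 libraries, 3 of 8, against 54.1%. Fgf17 did so through its lower-coordinate end, within 1 kb of Dmtn, and its other end had a peak in the 2 ectoderm libraries only. Fgf8 met it at its lower-coordinate end in 6 libraries, and its other end had a peak in ectoderm replicate 1 only. The sources used here do not give the strand of either gene, so which end is the start was not settled. Throughout, a start-site peak means a peak by this rule. In equal-length lists the counts were 5 of 8 in both ectoderm libraries (60.1% of all genes), 4 of 8 in both Sox2-positive libraries (55.8%) and 2 of 8, Fgf9 and Fgf17, in all libraries (51.4%). With Sox2-positive replicate 1 alone standing for its group, 7 of 8 genes had such a peak, so the count of 4 rested on replicate 2, the shortest list. The share of all genes under that looser rule was not counted.

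**Figure D1:**
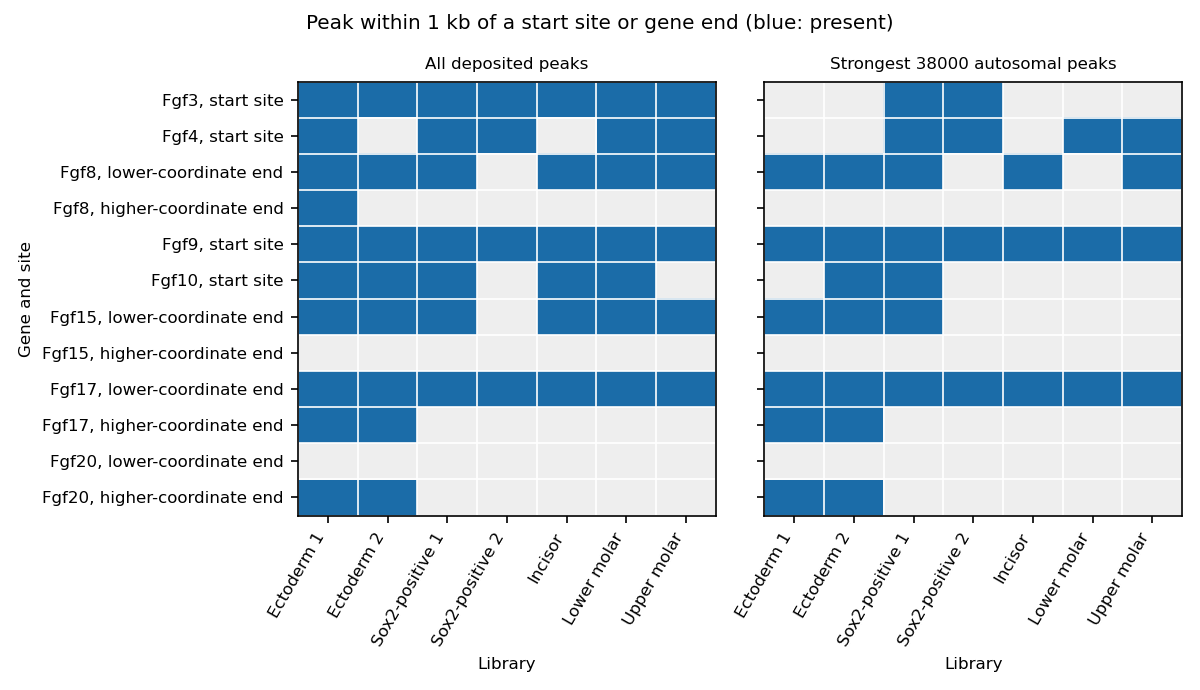
Presence (blue) or absence (grey) of a peak within 1 kb of each start site or gene end, in rows, for the 7 libraries, in columns, with all deposited peaks on the left and the strongest 38000 autosomal peaks on the right. Fgf9 and the lower-coordinate end of Fgf17 are blue throughout, and the higher-coordinate ends of Fgf17 and Fgf20 are blue in the 2 ectoderm libraries only.

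Counts of peaks around the genes were higher in both ectoderm libraries than in both Sox2-positive libraries for Fgf8, Fgf9, Fgf10, Fgf17 and Fgf20, and overlapped for the 3 genes on chromosome 7. That is 5 of 8 genes, against 47.6% of all protein-coding genes. In equal-length lists it was 4 of 8, Fgf17 dropping out, against 22.5%. The reverse order, both Sox2-positive libraries above both ectoderm libraries, was met by 0 of 8 genes in the full lists (1.85% of all genes) and by Fgf15 alone in equal-length lists (20.7%). When equal length was set by peak signal instead of p, 3 of 8 genes had more peaks in both ectoderm libraries, and without Sox2-positive replicate 1 all 8 did. Leaving a replicate out loosens the rule for every gene. The share over all genes was not counted for either setting, so these counts are not a trait of the ligands. With 2 libraries against 2, an exact two-sided permutation test cannot give a p below 0.333, so none of these orders could pass a test.

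Summed over the windows, with shared peaks counted once, ectoderm had 105 and 72 peaks (mean 88.5 ± 23.3, SD, n = 2) and Sox2-positive cells 56 and 43 (49.5 ± 9.19, SD, n = 2). Incisor had 61, lower molar 63 and upper molar 61. The ectoderm counts lay above the Sox2-positive ones, and their difference was larger than either SD. As a share of each list the groups came close, at 0.127% and 0.142% in ectoderm and 0.132% and 0.110% in Sox2-positive cells, and these ranges overlapped. In equal-length lists ectoderm had 52 and 56 peaks, Sox2-positive cells 52 and 43, incisor 33, lower molar 35 and upper molar 37. All 3 whole-tooth libraries then lay below all 4 replicated libraries.

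**Figure D2:**
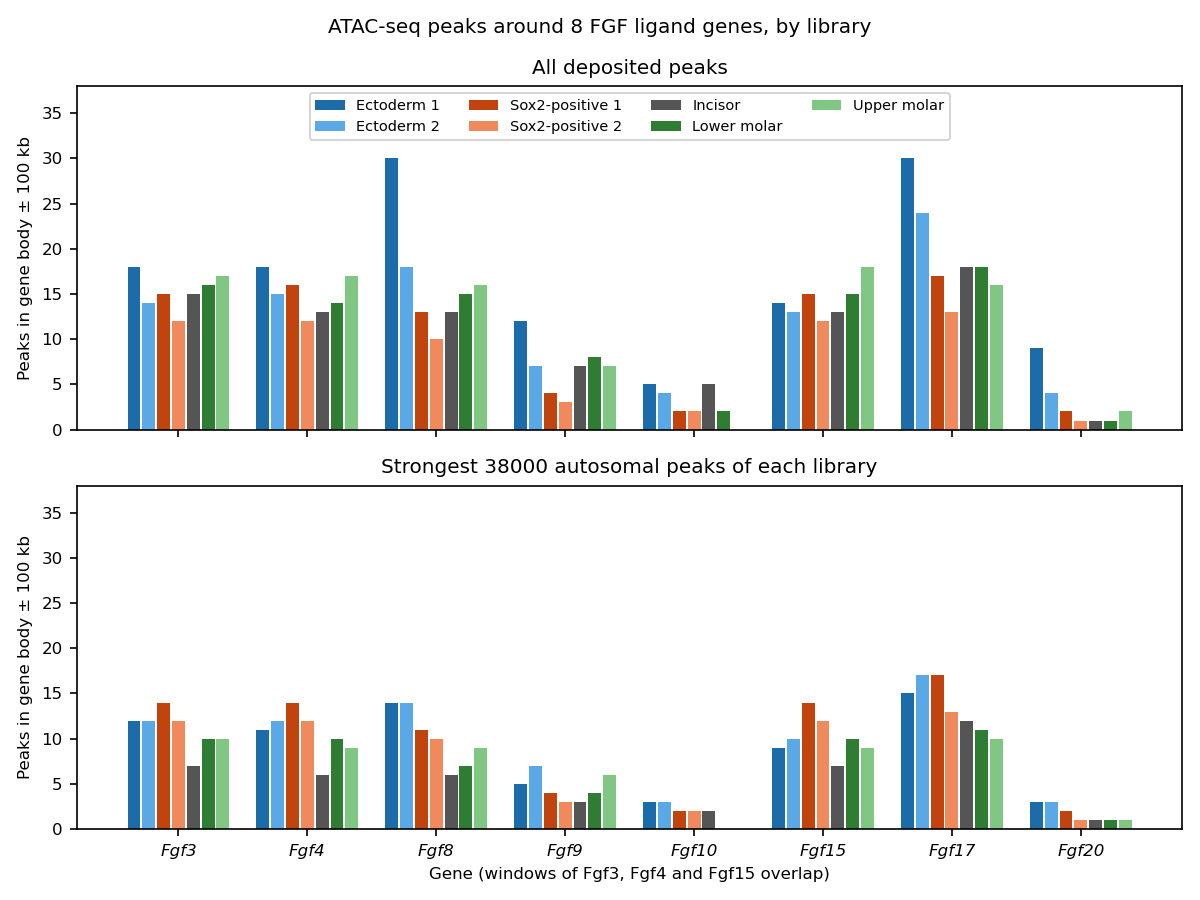
Number of peaks inside or within 100 kb of each gene body (vertical axis) for each gene, with 1 bar per library, for all deposited peaks (top) and for equal-length lists (bottom). At Fgf8 the ectoderm bars stand at 30 and 18 peaks in the top panel and at 14 and 14 in the bottom panel, above the other libraries in both, while Fgf10 and Fgf20 stay at 5 or fewer peaks everywhere but at Fgf20 in ectoderm replicate 1, which has 9.

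The 132 merged regions sorted into patterns at shares mostly near those of the genome. A region was given to a library if any of its peaks shared at least 1 bp with it. Regions in both ectoderm libraries but no Sox2-positive one numbered 30 (22.7%, Wilson 95% interval 16.4 to 30.6), against 17.9% of all regions. Regions with the reverse pattern numbered 8 (6.06%, 3.10 to 11.5), against 5.85%. Regions in all 7 libraries numbered 25 (18.9%, 13.2 to 26.5), against 14.3%. Those in both ectoderm libraries and no P2 library numbered 23 (17.4%, 11.9 to 24.8), against 11.8%, and those in all 5 P2 libraries and neither ectoderm library numbered 6 (4.55%, 2.10 to 9.56), against 4.56%. The intervals cover the counting of regions only and treat regions as independent, though many share a window. Whether an interval holds the genome's share is thus a description and not a test. Of those given in this paragraph, all hold the genome's share but that of the regions found in ectoderm and no P2 library, whose lower bound is just above. At equal length the interval of that pattern, 8.64 to 23.2, held the genome's 12.8%. In full lists the interval of the incisor regions without Sox2-positive cells, given below, also misses the genome's share.

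In equal-length lists the windows held 90 regions. Of these, 13 were in both ectoderm libraries but no Sox2-positive one (14.4%, against 15.7% of all regions), and the same number were in ectoderm and no P2 library (14.4%, against 12.8%). There were 9 with the reverse pattern (10.0%, against 12.0%), 19 in all libraries (21.1%, against 19.2%) and 2 in all P2 libraries and no ectoderm library (2.22%, against 6.29%). Which of the first patterns was commoner near FGF ligands than elsewhere thus changed with list length. Of the 132 regions, 38 had a peak in a single library (28.8%, against 31.4% of all regions), and 27 had it in ectoderm replicate 1 (20.5%, against 18.4%). At equal length 29 of the 90 had a peak in a single library (32.2%, against 25.2%), 11 of them in ectoderm replicate 2 and 5 in ectoderm replicate 1.

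**Figure D3:**
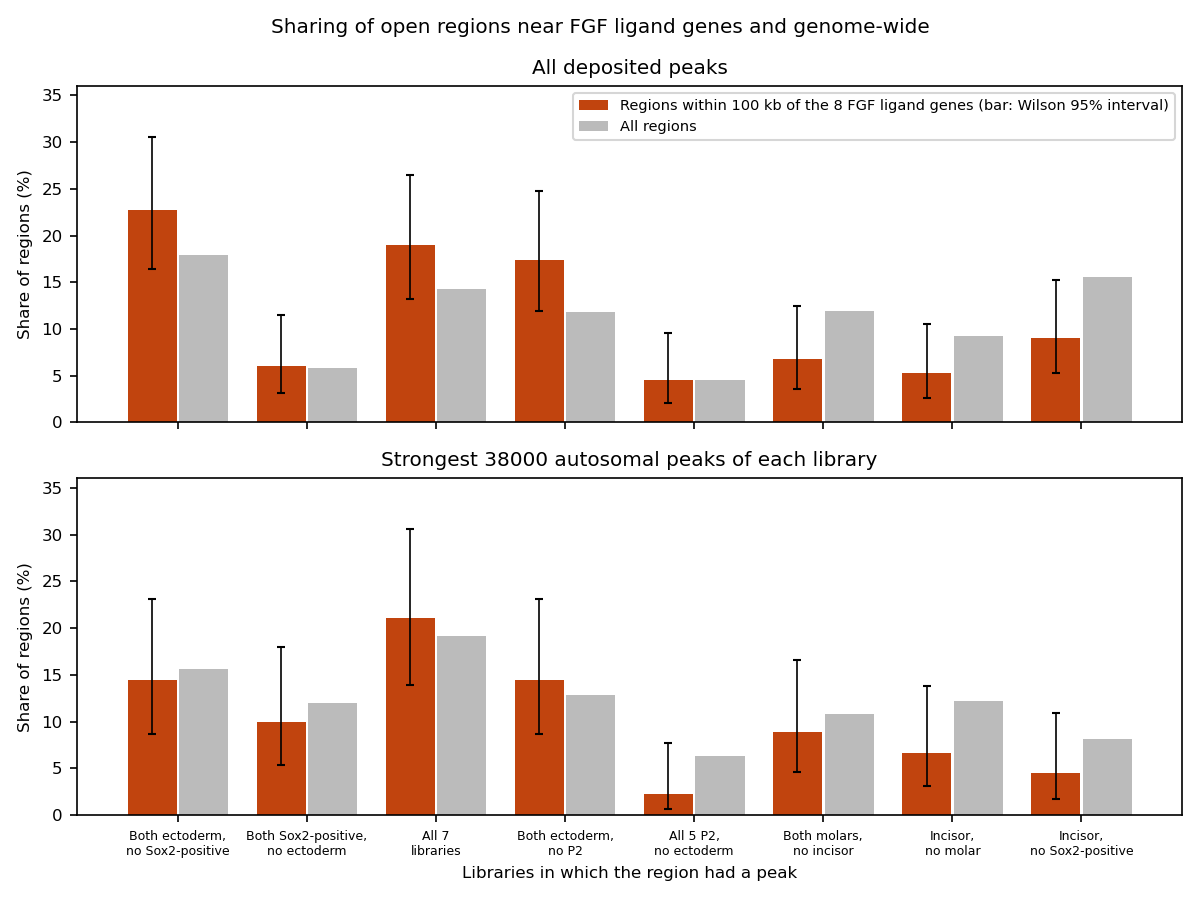
Share of open regions (percent) with each pattern of presence, for regions within 100 kb of the 8 genes (orange, with Wilson 95% intervals) and for all regions (grey), from full lists (top) and equal-length lists (bottom). In full lists the bar for both ectoderm libraries without Sox2-positive cells stands at 22.7% against 17.9%, and in equal-length lists at 14.4% against 15.7%.

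Regions in all libraries lay mostly at gene ends, and the group-restricted ones mostly did not. Of the 25 regions in all 7 libraries, 16 came within 1 kb of an end of a protein-coding gene (56.8% genome-wide), and without the ends of genes other than the 8 ligands only 11 of the 25 were left. Of the 23 found in ectoderm and no P2 library, 5 did so (7.82% genome-wide), and of the 6 found in all P2 libraries and not in ectoderm, 0 did (3.91% genome-wide). Median widths were 1571 bp for regions in all libraries, 630 bp for those in ectoderm alone and 584 bp for those in P2 alone. In all regions of the series the same widths were 1353, 570 and 770 bp. At equal length the widths were 1693, 655 and 1017.5 bp, against 1420, 691.5 and 846 bp, so the regions of P2 alone went from narrower to wider than their genome-wide median, over 2 regions. The counts at gene ends, in the same order, were then 13 of 19 (63.3% genome-wide), 3 of 13 (8.92%) and 0 of 2 (4.82%).

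Fgf8, which encodes an early signal of the facial ectoderm, had 30 and 18 peaks in the ectoderm libraries, 13 and 10 in Sox2-positive cells, 13 in incisor, 15 in lower molar and 16 in upper molar. Both ectoderm counts were the highest. In equal-length lists they were 14 and 14, against 11 and 10 in the sorted cells, 6 in incisor and 7 and 9 in the molars. Of the 36 regions around Fgf8, 9 were in both ectoderm libraries but no Sox2-positive one, against 17.9% of all regions. The reverse pattern had 3 (5.85% of all regions), and 6 were in all libraries (14.3%). At equal lengths 3 of 21 regions had the first pattern (15.7% of all regions) and 2 the reverse (12.0%). Without ectoderm replicate 2 the first pattern counted 21 regions in full lists. Leaving a replicate out loosens the rule for every region, here and at the loci below, and the share over all regions was not counted then.

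The peak at the lower-coordinate end of Fgf8 was found in 6 libraries and missed in Sox2-positive replicate 2. It covered chr19:45736850-45737846, inside the gene, and its summits lay 505 to 558 bases above that end in all 6. Its rank was within the top 26.9% and 49.2% of the ectoderm lists, 84.0% of Sox2-positive replicate 1, 59.2% of incisor, 56.9% of lower molar and 49.4% of upper molar. The higher-coordinate end had peaks in ectoderm replicate 1 only, at chr19:45741167-45742006, chr19:45742463-45742942 and chr19:45743063-45744068. The same library alone had chr19:45735113-45735766, 0.724 kb below the gene, and none of these 4 was in its equal-length list. Ranks are positions within a list and are not a comparison between libraries.

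Farther out, the ectoderm-restricted regions around Fgf8 were led by chr19:45746080-45746841, 3.14 kb above the gene and within 1 kb of Npm3, and by chr19:45717524-45718184, 18.3 kb below it between genes. Both kept peaks in the 2 ectoderm libraries alone in equal-length lists. All 5 P2 libraries and neither ectoderm library had a peak at chr19:45652289-45652739, inside Fbxw4 and 83.8 kb from Fgf8. At equal length incisor had no peak there and the other 4 P2 libraries did. A second such region, chr19:45734368-45735084, lay 1.41 kb below Fgf8 and ranked low, within the top 73.7% to 99.2% of the 5 P2 lists. Only Sox2-positive replicate 2, whose list the equal-length cut left almost whole, kept it. Fbxw4 also held chr19:45650047-45650260, which both Sox2-positive libraries had and no other library did, in full and in equal-length lists. Regions in all 7 libraries, in both kinds of list, were led by chr19:45782274-45784570, at an end of Oga, and chr19:45836205-45837972, inside Armh3. Armh3 also held chr19:45821931-45822566, in both molars alone in both kinds of list, and chr19:45827240-45827555, in incisor and ectoderm replicate 1 in full lists only.

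Fgf17, of the same subfamily as Fgf8, had 30 and 24 peaks in ectoderm, 17 and 13 in the sorted cells, 18 in incisor, 18 in lower molar and 16 in upper molar. In equal-length lists ectoderm had 15 and 17 and Sox2-positive cells 17 and 13, so the groups overlapped. Its window is crowded with 8 other protein-coding genes, and 11 of its 33 regions came within 1 kb of an end of one of them. Of the 33 regions, 9 were in both ectoderm libraries but no Sox2-positive one, against 17.9% of all regions. The reverse pattern had 0 (5.85% of all regions), and 8 were in all libraries (14.3%). At equal lengths 2 of 24 regions had the first pattern (15.7% of all regions). Without ectoderm replicate 2 the first pattern counted 15 in full lists. The strongest regions in all libraries were chr14:70577179-70578842, at an end of Nudt18, and chr14:70598875-70600167, at an end of Fam160b2.

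The ends of Fgf17 differed from each other. The lower-coordinate end lies 0.154 kb from Dmtn, and the region chr14:70634305-70637029 there, found in all 7 libraries, cannot be assigned to either gene. At the higher-coordinate end, chr14:70641670-70642509 and chr14:70642732-70643600 had peaks in both ectoderm libraries and in no P2 library. The second of these ranked within the top 16.3% of ectoderm replicate 1 and 52.1% of replicate 2, and both ectoderm libraries kept it in equal-length lists. Incisor and both ectoderm libraries, but no molar, had chr14:70640040-70640777 inside Fgf17, and incisor alone had chr14:70574702-70575125, 61.1 kb below it. Neither was in the equal-length list of incisor. A run of 3 further ectoderm-restricted regions, among them chr14:70628359-70629311, lay inside Dmtn, 6.45 to 8.69 kb from Fgf17, of which ectoderm replicate 2 kept 2 in its equal-length list and replicate 1 kept none.

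Fgf9, a signal of oral and dental epithelium, had 12 and 7 peaks in ectoderm, 4 and 3 in the sorted cells, 7 in incisor, 8 in lower molar and 7 in upper molar. In equal-length lists these were 5 and 7, 4 and 3, and 3, 4 and 6, and ectoderm stayed just above Sox2-positive cells. The start-site region chr14:58070393-58072847 was open in every library in both kinds of list and ranked within the top 10.5% to 30.9% of its list. A second region inside the gene, chr14:58074502-58077229, was also in all 7 libraries, and was lost only from incisor with equal lengths. This region was picked after its values were seen.

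The other regions of Fgf9 were mostly restricted, apart from chr14:57998532-57999548 at an end of Micu2, which was in all libraries in both kinds of list. Of the 15 regions around Fgf9, 3 were in both ectoderm libraries but no Sox2-positive one, against 17.9% of all regions. Without ectoderm replicate 2 this count was 7. Both ectoderm libraries and no P2 library had chr14:58175673-58175964, 62.8 kb above the gene, and chr14:57982104-57982441, 88.2 kb below it inside Micu2, and both stayed in equal-length lists. Both molars alone had chr14:58163332-58163670, 50.5 kb above the gene, and incisor alone had chr14:57980291-57980528, inside Micu2, and neither was kept at equal length. A region 94.8 kb above the gene, chr14:58207618-58208205, was in incisor and both molars and in neither Sox2-positive nor ectoderm library, also at equal length. It follows none of the patterns by which regions were chosen for naming and was picked after its values were seen.

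Fgf20, which belongs to the Fgf9 subfamily and is known as a target of ectodysplasin signalling in dental epithelium, had 9 and 4 peaks in ectoderm, 2 and 1 in the sorted cells, 1 in incisor, 1 in lower molar and 2 in upper molar. Ectoderm was highest, and in equal-length lists the counts were 3 and 3 against 2 and 1, with 1 in each whole-tooth library. The region chr8:40285755-40287599 at the higher-coordinate end was 1845 bp wide and had peaks in both ectoderm libraries and no other, in full and equal-length lists. It ranked within the top 33.8% and 36.4% of the ectoderm lists. The nearest summit to that end was 9.69 and 21.0 kb away in the Sox2-positive libraries, 21.0 kb away in incisor and in lower molar and 9.73 kb away in upper molar.

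A second region near Fgf20 had the same pattern, chr8:40257474-40257952, 21.2 kb below the gene between genes, also kept by both ectoderm libraries at equal length. The single region of this locus open in all libraries was chr8:40307093-40308939, at an end of the neighbouring gene Micu3. Of the 9 regions around Fgf20, the 5 with a peak in a single library were all in ectoderm replicate 1, against 18.4% of all regions. Regions in both ectoderm libraries but no Sox2-positive one numbered 2, against 17.9% of all regions. Without ectoderm replicate 2 this count was 7.

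**Figure D4:**
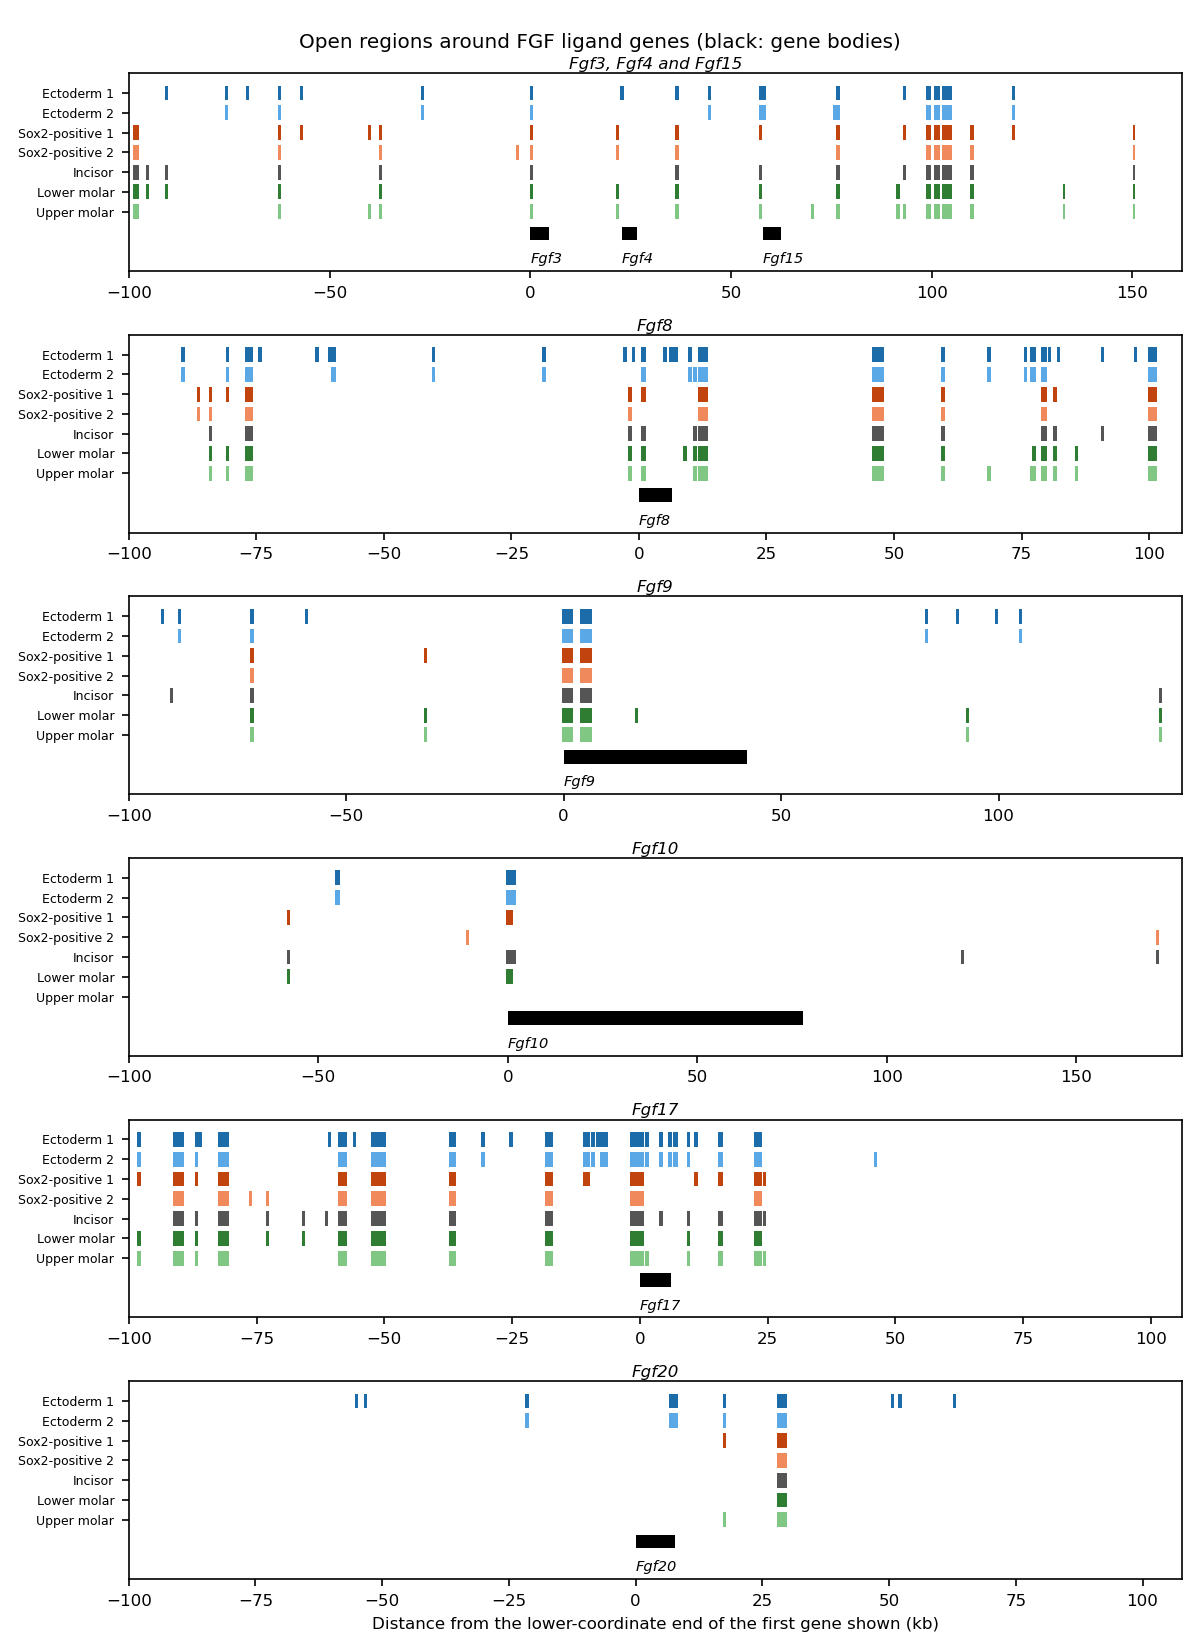
Open regions along the windows of the 8 genes, 1 row per library, with distance from the lower-coordinate end of the first gene shown (kb) on the horizontal axis and gene bodies in black; each bar is a merged region in which that library had a peak in the full list, and regions under 700 bp are drawn at that width. Fgf20 shows bars at the gene in the 2 ectoderm rows only, and the Fgf3, Fgf4 and Fgf15 window shows bars for P2 libraries near both edges where ectoderm has none.

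Around Fgf3, Fgf4 and Fgf15, ectoderm and Sox2-positive cells had similar numbers of peaks but some at different places. Fgf3 is known from the enamel knot and the dental papilla, and Fgf15 is the mouse counterpart of human FGF19, a gut hormone that controls bile acid synthesis. Fgf3 had 18 and 14 peaks in ectoderm, 15 and 12 in the sorted cells, 15 in incisor, 16 in lower molar and 17 in upper molar. Fgf4 had 18 and 15, 16 and 12, and 13, 14 and 17 in the same order. Fgf15 had 14 and 13, 15 and 12, and 13, 15 and 18. For all 3 genes the ectoderm and Sox2-positive counts overlapped.

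In equal-length lists ectoderm had 9 and 10 peaks around Fgf15, Sox2-positive cells 14 and 12, incisor 7, lower molar 10 and upper molar 9, and Sox2-positive cells were then highest. Around Fgf3 the equal-length counts were 12 and 12 in ectoderm and 14 and 12 in Sox2-positive cells, and around Fgf4 they were 11 and 12 against 14 and 12. Of the 31 regions in the joint window, 4 were in both ectoderm libraries but no Sox2-positive one, against 17.9% of all regions. The reverse pattern had 5 (5.85% of all regions), and 7 were in all libraries (14.3%). At equal length 7 of 24 regions had the reverse pattern (12.0% of all regions) and 3 the first (15.7%). The joint window was the only one of the 6 separate windows with at least as many regions of the reverse pattern, in full lists (5 against 4) and at equal length (7 against 3). The order did not hold throughout. The reverse pattern counted 2 against 5 with the stronger 50% of each list, 1 against 2 with 25 kb windows, 4 against 5 where 50% of a region had to be covered, and 5 against 7 without ectoderm replicate 2. Whether this window differs from the others was not tested.

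All 4 ectoderm-restricted regions of this window had no peak in any P2 library. They were led by chr7:144883019-144883544, between Fgf4 and Fgf15 and 13.0 kb from Fgf15, within the top 17.8% and 35.4% of the ectoderm lists, and by chr7:144811517-144811993, 26.6 kb below Fgf3, within the top 19.3% and 41.5%. Both ectoderm libraries kept these in equal-length lists. All 5 P2 libraries and neither ectoderm library had chr7:144739622-144741226, inside Ano1 and 97.4 kb from Fgf3, and chr7:144988760-144989189, 87.8 kb above Fgf15. All P2 libraries kept both at equal length, and ectoderm had neither.

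At the start sites of this cluster the libraries split differently. The Fgf3 start region chr7:144838433-144839322 was in all 7 full lists but ranked low, within the top 50.7% of ectoderm replicate 1 and between 79.7% and 95.2% in the other 6. Only the Sox2-positive libraries, whose lists the cut left almost whole, kept it at equal length. Their −log10 p there was 3.46 and 3.16. In ectoderm replicate 1 it was 4.64, below the lowest value kept from that list, 4.79. Ectoderm replicate 1 alone had chr7:144860972-144861931 over the Fgf4 start, within the top 82.0% of its full list and not in its equal-length list. Below Fgf4 a region of 361 bp, chr7:144860184-144860544, had peaks in both Sox2-positive libraries and both molars and in neither ectoderm nor incisor, in full and equal-length lists. Its summits sat at -1042 to -1082 bp from the Fgf4 start, outside the promoter sequence shown above. Regions in all libraries were led by chr7:144914670-144915822, at an end of LTO1, and chr7:144941112-144941899, between genes, in both kinds of list. At Fgf15 the region chr7:144895495-144896257, 0.274 kb below the gene, was in every library except Sox2-positive replicate 2. Both ectoderm libraries and Sox2-positive replicate 1 kept it at equal length. The neighbouring chr7:144896349-144897262 over the lower-coordinate end was found in both ectoderm libraries and no other.

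The same window held a site that stood high in the molars, described after its values were seen. The region chr7:144874675-144875587, 9.43 kb above Fgf4 and between Fgf4 and Fgf15, ranked within the top 15.6% of lower molar and 15.8% of upper molar. It ranked within the top 82.1% and 78.2% of the Sox2-positive lists, 94.5% of incisor and 74.9% of ectoderm replicate 1, and ectoderm replicate 2 had no peak there. In equal-length lists both molars and both Sox2-positive libraries kept it, and incisor and ectoderm did not. Regions found in both molars and in no other library were chr7:144929771-144930638, at the ends of LTO1 and Ccnd1 and kept at equal length, and chr7:144971333-144971787, which was not kept.

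Fgf10, the mesenchymal ligand, stood in the emptiest of the windows beside Fgf20, although its body of 77.9 kb is the longest of the 8. It had 5 and 4 peaks in ectoderm, 2 and 2 in the sorted cells, 5 in incisor, 2 in lower molar and 0 in upper molar. In equal-length lists the counts were 3 and 3, 2 and 2, 2, 0 and 0. Upper molar had its nearest summit 267 kb from the Fgf10 start. With read depth unknown, a missing peak does not show that a site was closed.

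The Fgf10 start region chr13:118714231-118716083 had a peak in both ectoderm libraries, Sox2-positive replicate 1, incisor and lower molar. By its best peak it ranked within the top 45.9% and 31.6% of the ectoderm lists, and within the top 90.8%, 74.0% and 95.4% of Sox2-positive replicate 1, incisor and lower molar. In ectoderm replicate 1 the peak over the start itself ranked within the top 51.2%. At equal length that library kept only another part of the region. Ectoderm replicate 2 and Sox2-positive replicate 1 kept a peak within 1 kb of the start at equal length. Both ectoderm libraries and no P2 library had chr13:118669648-118670347, 44.4 kb below the gene, in both kinds of list, and the adjoining chr13:118669215-118669525. Incisor and not the molars had 3 of the 8 regions around Fgf10, against 9.20% of all regions. Among them were chr13:118834567-118834897, 42.0 kb above the gene and in incisor alone in full and equal-length lists, and chr13:118885854-118886489, shared with Sox2-positive replicate 2.

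Most regions of the sorted Sox2-positive cells were also found in whole incisor. Of 34 regions in both Sox2-positive libraries, 32 were also in incisor (94.1%, Wilson 95% interval 80.9 to 98.4), against 95.6% of all such regions. The 2 exceptions are 1.52% of the 132 regions, against 0.965% of all regions. They were the Fgf4 region at chr7:144860184-144860544 and the Fbxw4 region near Fgf8. At equal length 23 of 32 were also in incisor (71.9%, 54.6 to 84.4), below the 86.7% of all such regions, and 9 of the 90 regions were in both Sox2-positive libraries and not in incisor (10.0%, against 4.69%). Of these 9, the Fgf3, Fgf4 and Fgf15 window held 5, Fgf8 held 3 and Fgf9 held 1. Incisor without either Sox2-positive library had 12 regions (9.09%, 5.28 to 15.2, against 15.6%), and 4 at equal length (4.44%, against 8.12%). The interval from full lists ended just below the genome's share, and the interval at equal length, 1.74 to 10.9, held it.

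Tooth types differed at few regions, with 1 library each. Both molars without incisor had 9 regions (6.82%, Wilson 95% interval 3.63 to 12.5), against 11.9% of all regions, and incisor without either molar had 7 (5.30%, 2.59 to 10.5), against 9.20%. At equal length these were 8 (8.89%, against 10.8%) and 6 (6.67%, against 12.2%). Of the 7 incisor regions, 3 lay around Fgf10, 2 around Fgf17 and 1 each around Fgf8 and Fgf9. Of the 57 regions in lower molar, 49 were also in upper molar (86.0%, 74.7 to 92.7), against 86.6% of all regions of lower molar. At equal length 32 of 33 were (97.0%, 84.7 to 99.5), against 88.7%.

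Other genes of the pathway were read by the same rules. Of 14 other FGF ligand genes, 6 had more peaks in both ectoderm libraries than in both Sox2-positive libraries (Fgf5, Fgf12, Fgf14, Fgf18, Fgf21 and Fgf22) and 0 had the reverse, against 47.6% and 1.85% of all genes. In equal-length lists, over the 12 on autosomes, 2 did (Fgf14 and Fgf21) and 2 had the reverse (Fgf6 and Fgf23), against 22.5% and 20.7%. Of 17 receptor and feedback genes, 6 had more peaks in ectoderm and 2 the reverse, against 47.6% and 1.85% of all genes. The 2 were the receptor gene Fgfr3 and the ETS factor gene Etv4. At equal length 1 of the 17 had more in ectoderm, Spred3, and 10 had the reverse, against 22.5% and 20.7% of all genes. Among the 10 were Fgfr1, Fgfr3, Spry2, Spry4, Dusp6, Etv4 and Etv5. A start-site peak in all 7 libraries was found for 16 of these 17 genes, Fgfr4 being the exception, and for 8 of the 14 other ligands and 3 of the 8 ligands described here. Over all genes the share was 54.1%. At equal length these counts were 16 of 17, 5 of 12 and 2 of 8, against 51.4%. Median counts over the 8 genes were 16 and 13.5 peaks in ectoderm and 14 and 11 in Sox2-positive cells, against 12, 8, 6 and 6 over all genes, with overlapping windows counted for each gene. At equal length they were 10 and 11 in ectoderm and 12.5 and 11 in the sorted cells, against 6 over all genes in each library, so the groups overlapped in both kinds of list, with the highest value in ectoderm in full lists and in the sorted cells at equal length.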

How the data were processed

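The 7 mouse ATAC-seq libraries were read as the authors' deposited peak lists, 1 per library, in the narrowPeak layout. Per the submitters' processing notes, FastQC, Trimmomatic, Bowtie2, deepTools and Genrich were used with build mm10. Their versions, options and roles are not given in the sources used here. The deposited signal of a peak is the caller's own value, never below 200.0, and the deposited −log10 p ranks peaks within a list. No scaling between libraries is recorded in the files or labels. The deposited score was not used, and the q-value field held −1 in every line. Depth is unknown.

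Peaks on chromosomes 1 to 19, X and Y were counted against gene bodies of the RefSeq table for GRCm38.p6 (mm10 coordinates) with 100 kb on each side. Peaks of the 7 lists that shared at least 1 bp were joined into regions. Positions are counted from 1. Start sites came from the RefSeq promoter table, which covered 4 of the 8 genes. For other genes either gene end was used. Equal-length lists took the 38000 autosomal peaks with the highest −log10 p. The counting was tested on simulated peak lists. No test across genes or regions was run, because regions are not replicates. Regions were named by a rule: all at start sites, and up to 2 per pattern and locus by the smallest summed rank. Other regions given by position are said to be picked after their values were seen. The genes, lists and rules were chosen with earlier results of these data known. The motifs and the alternative without the ends of other genes were chosen after the data were seen. Alternatives are listed at the end. Groups and replicate numbers came from sample titles. Software was Python 3.11.15, numpy 2.4.6, pandas 2.3.3 and scipy 1.17.1.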

Additional observations from a re-analysis of the deposited data

How the results depend on the processing

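Counts near 8 genes are small, depth is unknown, and list length moved many of them. No paired analysis was run, because the labels link no libraries by animal or litter. Regions in both ectoderm libraries but no Sox2-positive one, 30 in full lists, numbered 13 with 38000 peaks per library by p, 15 by signal, 18 with the stronger 50% of each list, 15 with 25 kb windows, and 30 to 61 when 1 replicate was left out, with 61 without ectoderm replicate 2. The reverse pattern, 8 in full lists, numbered 2 with the stronger 50%, 4 with 50 kb and 2 with 25 kb windows, and 8 to 13 without 1 replicate, with 13 without either Sox2-positive replicate. Regions in all libraries, 25, numbered 15 with the stronger 50%, 16 and 9 with 50 and 25 kb windows, 14 when 50% of a region had to be covered, and 11 without regions at the ends of other genes.

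Genes with more peaks in both ectoderm libraries, 5, numbered 3 at equal length by signal, and 5 to 8 without 1 replicate, with 8 without Sox2-positive replicate 1. Regions in molars and not incisor, 9, numbered 4 at equal length by signal, 5 with the stronger 50%, and 3 and 1 with 50 and 25 kb windows. Regions in incisor and no molar, 7, numbered 4, 3 and 2 with the last 3 settings. Regions in incisor and no Sox2-positive library, 12, numbered 4 at either equal length, 5 with the stronger 50%, 5 and 4 with 50 and 25 kb windows, and 12 to 21 without 1 replicate, with 21 without Sox2-positive replicate 1. Genes with a start-site peak in both Sox2-positive libraries, 4, numbered 2 with the stronger 50%, and 4 to 7 without 1 replicate, with 7 without Sox2-positive replicate 2. Smaller windows and shorter lists hold fewer regions by construction, and leaving a replicate out loosens the rules by construction. Apart from equal length by p, the shares over all genes or regions were not counted for these settings. The other 61 of these 93 values stayed within 1.5 times of the main count, including all those for start-site peaks in ectoderm.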

Other observations

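Genes whose pattern over the 7 libraries was most like that of Fgf8 or Fgf10 were found as those with a start-site peak in the same libraries and the smallest sum of absolute differences in peak counts within 100 kb. For Fgf8, 335 other protein-coding genes had a start-site or gene-end peak in the same 6 libraries. The nearest were Clmn with a summed difference of 9 peaks, Gpatch1 with 14 and Glmp with 19. Clmn had 30 and 19 peaks in ectoderm, 14 and 10 in the sorted cells, 12 in incisor, 18 in lower molar and 19 in upper molar. For Fgf10, 11 other genes shared the pattern. The nearest were Ddx3y and Uty, each with a summed difference of 9 peaks, and Tox3 with 13. Ddx3y and Uty are on chromosome Y, and neither had a peak within 100 kb in Sox2-positive replicate 2 or upper molar. Sox2-positive replicate 2 had 0 peaks on the whole of chromosome Y and upper molar 3, so the likeness of Fgf10 to these genes rests on libraries that differ in Y-linked peaks. Likeness over 7 libraries in counts this low is a description.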
